A study of Mus musculus with 16 samples.

Results

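The comparison set late-passage fibroblasts grown in 20% O2 against those grown in 3% O2, over all mouse microRNAs (miRNAs) on the array. Its members are the 8 arrays labelled passage 7 (P7), of 16 in the series: 4 in 20% O2 and 4 in 3% O2, with both genotypes pooled and with genotype and replicate number held as blocks. The cells were primary mouse embryonic fibroblasts (MEFs) of a mixed FVB/n and C57Bl/6 strain, either wild type (WT) or Ercc1-/-, which lack ERCC1, a subunit of the XPF-ERCC1 DNA repair nuclease. Each of the 4 P7 groups, WT and Ercc1-/- in either oxygen level, held 2 arrays. By the culture protocol, MEFs were mixed cells of mid-gestation embryos, replicates were independent cell lines, and cells were passaged in parallel in both oxygen levels. The study used 3% O2 to hold back senescence and 20% O2 to drive it, so the comparison asks which miRNAs followed oxygen after long culture. No array came from cells moved between oxygen levels for a short time, so that an immediate response to oxygen and the state of the cells after many divisions cannot be told apart here. RNA of a whole culture was hybridised, and fewer cells that make a miRNA and less of it per cell cannot be told apart either.

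A miRNA is a short RNA that pairs with messenger RNAs, mainly through its seed, bases 2 to 8 from the 5′ end, and lowers their translation and stability. In low oxygen the hypoxia-inducible factors (HIF) escape degradation and switch on genes for glycolysis, blood vessel growth and reduced respiration. MiR-210 is their best known miRNA target and acts on messages of mitochondrial iron-sulfur cluster assembly. The miR-15/16 family, to which miR-497 and miR-195 belong, targets cyclins and other cell cycle genes and Bcl2.

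The sequences that carry the result are those of miR-210, which no other mouse miRNA in RefSeq (GRCm38.p6, 1679 mature names) shares a seed with, and those of miR-497 with the members of its seed family on the array, shown with the seed in capitals. MiR-503, from the same hairpin cluster as miR-322, is shown because its seed is close to theirs but not the same. The array uses older names without arms, and the sequences are those of the current RefSeq names miR-210-3p, miR-497a-5p, miR-195a-5p and the 5p arms of the others.
miR-210: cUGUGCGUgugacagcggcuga
miR-497: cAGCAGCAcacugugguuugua
miR-195: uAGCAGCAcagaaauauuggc
miR-15a: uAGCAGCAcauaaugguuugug
miR-15b: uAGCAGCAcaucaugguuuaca
miR-16: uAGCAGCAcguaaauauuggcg
miR-322: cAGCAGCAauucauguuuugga
miR-503: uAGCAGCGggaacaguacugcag

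The miR-210 hairpin lies on chr7:141221384-141221493, minus strand. The hairpins of miR-497 (chr11:70234717-70234800) and miR-195 (chr11:70235042-70235135) are neighbours on the plus strand with 241 bases between them, while miR-15a and one miR-16 gene lie on chromosome 14, miR-15b and the other miR-16 gene on chromosome 3, and miR-322 and miR-503 on chromosome X. Counted base by base from the 5′ end, miR-15a shares 17 of 22 bases with miR-497, miR-15b 16, miR-322 15, miR-195 12 of 21, miR-16 11 of 22 and miR-503 10 of 22.

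Of 611 mouse miRNAs, 286 were above background on at least 1 P7 array and 85 on all 8, and 177 were tested, which are those that 1 or more of the 4 groups had above background on both of its arrays. The miRNAs above background numbered between 117 and 245 per array. Replicate 1 of every group was hybridised on slide 1 and replicate 2 on slide 2, and the mean log2 signal before scaling was 8.83 on slide 1 and 6.98 on slide 2. The Ercc1-/- array of replicate 2 in 20% O2 stood apart: it had the lowest mean log2 signal (5.80), the fewest miRNAs above background (117) and a median correlation of 0.524 with the other P7 arrays, against 0.793 to 0.922 for the others. The marker and other miRNA lists took each listed name with any strand of it on the array, so that counts are of array entries. Of 32 entries for miRNAs listed as abundant in mesenchymal cells, 29 were above background on at least 1 P7 array and 17 on all 8. Above background on any P7 array were 0 of 12 epithelial and 0 of 3 liver and endothelial entries. The same held for 1 of 7 muscle, 3 of 7 blood and 4 of 9 neural entries. Values below are log2 of the scaled signal, with a floor at 1.50, and 4 values in a row are WT replicates 1 and 2 and then Ercc1-/- replicates 1 and 2. A change is the log2 difference of 20% minus 3% O2.

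Moderated two-sided tests across the 177 miRNAs (limma, Benjamini-Hochberg) called 2 miRNAs at an adjusted p under 0.05, miR-210 and miR-497, both lower in 20% O2. That is 1.13% of the tested miRNAs called lower and 0% called higher. Without adjustment 8 miRNAs had a p under 0.05, 7 of them lower (3.95%) and 1 higher (0.565%). The median change over all tested miRNAs was 0.03, with 92 positive and 85 negative, and 169 lay between -1 and 1. The median standard error (SE) of a change was 0.479, so that changes of less than about 1 log2 unit lay within the spread of these arrays. Larger changes were not called after adjustment either, such as those of miR-223 (-1.65), miR-195 (-1.58) and miR-199a-3p (1.38).

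**Figure D1:**
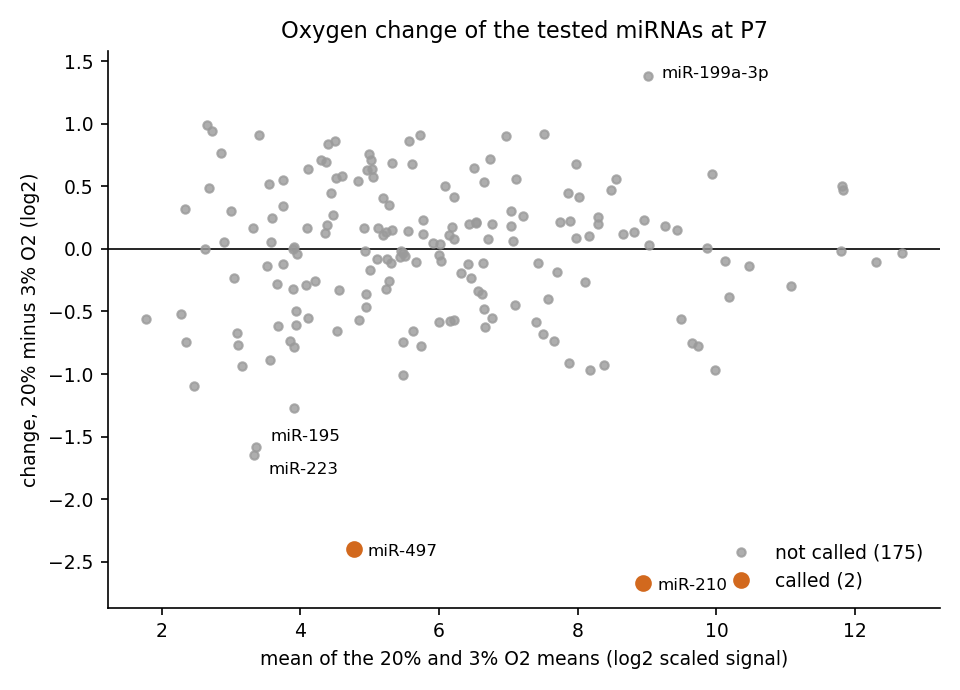
Change between oxygen levels (20% minus 3% O2, log2) of the 177 tested miRNAs, plotted against the mean of the 2 oxygen means (log2 scaled signal), 1 point per miRNA. The 2 called miRNAs, miR-210 and miR-497, lie lowest, and miR-199a-3p is the 1 miRNA above 1.

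MiR-210 had the largest change at P7. In 3% O2 its log2 signal was 9.48 and 9.93 in the WT cultures and 10.54 and 11.16 in the Ercc1-/- cultures, and in 20% O2 it was 6.77 and 8.44 in the WT and 6.71 and 8.52 in the Ercc1-/- cultures, for replicates 1 and 2. Every 20% array was below every 3% array, and miR-210 was above background on all 8. Its mean fell from 10.28 ± 0.73 (SD, n = 4) in 3% O2 to 7.61 ± 1.01 (SD, n = 4) in 20% O2, a change of -2.67 (SE 0.46, 95% interval -3.66 to -1.67, adjusted p = 0.0125 by limma), or 6.35-fold. The groups of 4 arrays did not overlap for 3 of 177 miRNAs with 20% O2 lower (1.69%) and for 0 with 20% O2 higher. If the order of the 8 arrays were random, a share of 0.0286 would not overlap in either direction. Lack of overlap alone therefore does not set a miRNA apart. An exact two-sided permutation test of miR-210 alone gave p = 0.0286 over the 8 arrays, the smallest that 4 against 4 allow, and over the 4 pairs the exact p was 0.125, again the smallest possible.

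The drop of miR-210 appeared in all 4 pairs of arrays of the same genotype and replicate: -2.71 and -1.49 in the WT and -3.83 and -2.64 in the Ercc1-/- cultures. On slide 1 alone the change was -3.27 (limma adjusted p = 0.0258) and on slide 2 alone -2.06, where it was not called (adjusted p = 0.165). Fitted within a genotype it was -2.10 (SE 0.70, adjusted p = 0.864 by limma) in WT and -3.23 (SE 0.70, adjusted p = 0.0761) in Ercc1-/- MEFs. The difference between the genotypes was -1.13 with a 95% interval of -3.26 to 0.99 (adjusted p = 0.997), an interval that includes 0 and that also includes a drop several times deeper in Ercc1-/- MEFs. Without the replicate block the adjusted p of miR-210 was 0.271 and no miRNA was called, and miR-210 also lost its call when the 3% array of WT replicate 1 (adjusted p = 0.0796) or of Ercc1-/- replicate 1 (0.0957) was left out, with changes of -2.64 and -2.40.

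At passage 3 (P3) miR-210 had been lower in 20% O2 as well. Its signal there was 9.44 and 9.71 (WT) and 8.75 and 9.11 (Ercc1-/-) in 3% O2, against 6.29 and 6.03 (WT) and 5.50 and 5.91 (Ercc1-/-) in 20% O2. The P3 change of -3.32 was lower in 4 of 4 pairs and the lowest of the 177 miRNAs, as was the P7 change. The difference between passages, P7 minus P3, was 0.66 (SE 0.45, adjusted p = 0.851 by limma), and 0 of 235 miRNAs tested for it were called.

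**Figure D2:**
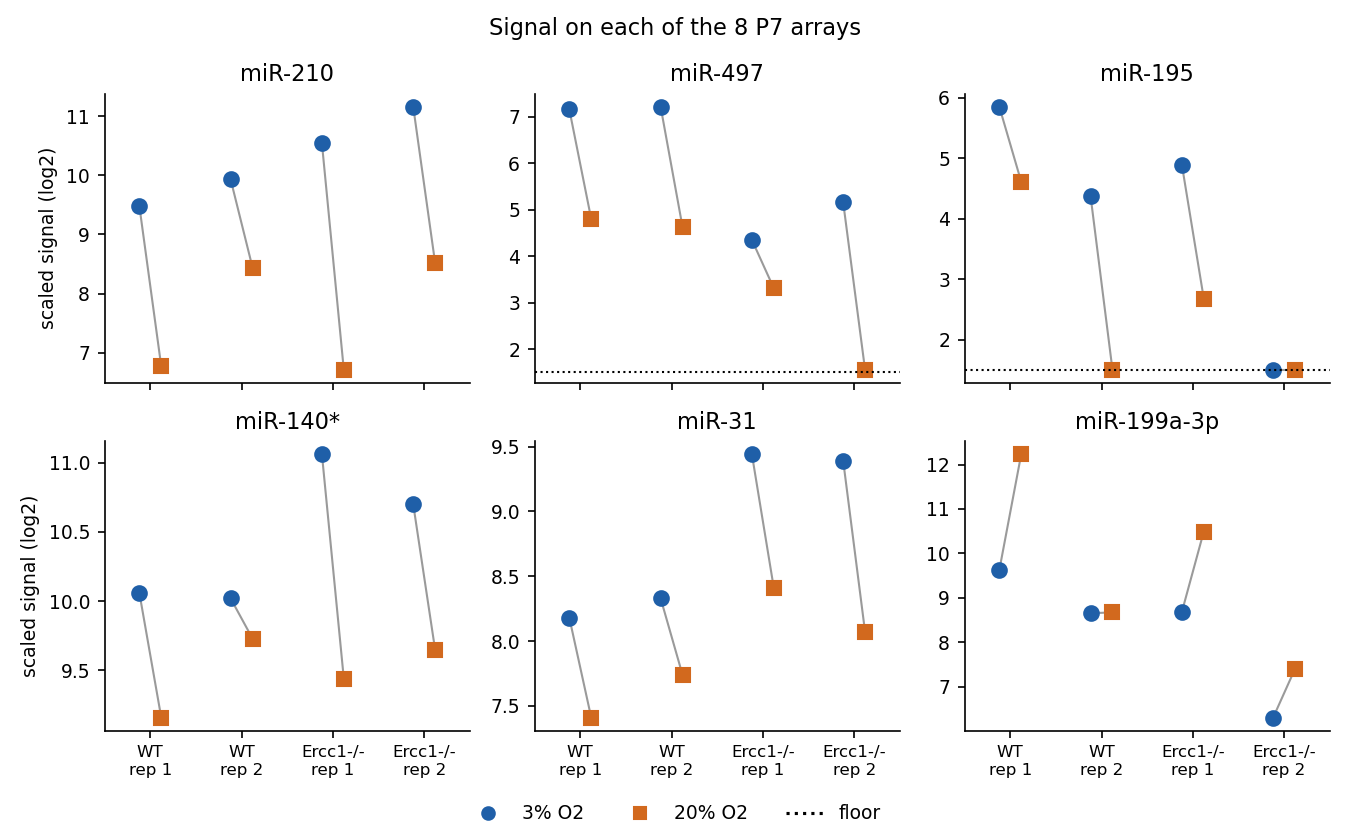
Log2 scaled signal of 6 miRNAs on the 8 P7 arrays, with 3% O2 (circles) and 20% O2 (squares) of the same genotype and replicate joined by a line and the floor of 1.50 dotted where values come near it. MiR-210, miR-497, miR-140* and miR-31 are lower in 20% O2 in all 4 pairs and miR-195 in 3, while miR-199a-3p is higher in all 4, by 0.01 in WT replicate 2.

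MiR-497 was the other miRNA called. Its log2 signal in 3% O2 was 7.16 and 7.22 in the WT and 4.35 and 5.16 in the Ercc1-/- cultures, and in 20% O2 it was 4.80 and 4.63 in the WT and 3.31 and 1.55 in the Ercc1-/- cultures. It was lower in 20% O2 in all 4 pairs, but the groups overlapped, because both WT arrays in 20% O2 lay above the lower Ercc1-/- array in 3% O2. Background was exceeded on all 4 arrays in 3% O2 and on 3 of 4 in 20% O2, the exception being the Ercc1-/- array of replicate 2, whose 1.55 is not a measured level. The mean fell from 5.98 ± 1.45 (SD, n = 4) to 3.57 ± 1.51 (SD, n = 4), a change of -2.40 (SE 0.48, 95% interval -3.43 to -1.37, adjusted p = 0.0221 by limma), or 5.29-fold. Without that array the change was -2.05 (adjusted p = 0.00355), and with a floor multiplied by 4 it was -1.87 (adjusted p = 0.176), so that its full size rests in part on that value. The exact two-sided permutation test of this miRNA alone, which takes no account of genotype, gave p = 0.0857.

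The miR-497 change was -2.48 (SE 0.75) in WT and -2.33 (SE 0.75) in Ercc1-/- MEFs, with a difference of 0.15 and a 95% interval of -2.14 to 2.43. By pair it was -2.36 and -2.60 in WT MEFs and -1.04 in the first Ercc1-/- pair. On slide 1 the change was -1.70 (adjusted p = 0.1), while the second Ercc1-/- pair (-3.62) and with it slide 2 (-3.11) include the value that was not above background. The call of miR-497 was less firm than that of miR-210: it was kept in 2 of 8 fits that left out 1 array and in 9 of 19 other settings, and with normexp background correction the change was -0.75 (adjusted p = 0.62). At P3 miR-497 was lower in 20% O2 in 4 of 4 pairs, with a mean change of -0.75, and the difference between passages, -1.65 (SE 0.53), had the smallest p of that comparison but did not pass it (adjusted p = 0.717 by limma), followed by that of miR-455* (-1.54) and with miR-132 (1.11) also among the 5 smallest.

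MiR-195 shares the seed of miR-497 and lies beside it on chromosome 11. In 3% O2 it read 5.85 and 4.37 in the WT and 4.89 and 1.50 in the Ercc1-/- cultures, and in 20% O2 it read 4.61 and 1.50 in the WT and 2.68 and 1.50 in the Ercc1-/- cultures. In 20% O2 it was lower in 3 pairs, and in the remaining one, Ercc1-/- replicate 2, it sat at the floor on both arrays. The fitted change was -1.58 (SE 0.50) and did not pass the test (adjusted p = 0.456 by limma). With 3 values at the floor its size followed the floor, from -2.91 with a floor multiplied by 0.1 to -0.88 with one multiplied by 4, and it was -0.29 with normexp. Only the WT group in 3% O2 had both arrays above background, so that miR-195 was tested only through its 3% arrays. That filter favours a lower value in 20% O2, and the fits that follow share it. The change passed the limma test with array weights (-1.82, adjusted p = 0.00286). Without the Ercc1-/- 20% array of replicate 2 it was -1.98. At P3, where all 8 arrays were above background, miR-195 was lower in 20% O2 in 4 of 4 pairs, with a mean change of -0.76.

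The other tested miRNAs with the same seed had mean changes close to 0. MiR-15a had a change of -0.12 (95% interval -1.17 to 0.93), miR-15b of -0.03 (-1.37 to 1.30), miR-16 of 0.08 (-0.94 to 1.10) and miR-322 of 0.35 (-1.01 to 1.71), none called. These means hide opposite pairs: miR-15b was higher in 20% O2 by 1.34 in WT and 1.66 in Ercc1-/- MEFs in replicate 1 and lower by 1.32 and 1.81 in replicate 2. For miR-322 the change was 0.72, 1.91 and 1.26 in 3 pairs and -2.49 in WT replicate 2. MiR-503, with its own seed, had a change of -1.27 (SE 0.68, adjusted p = 0.758), lower in 3 of 4 pairs and higher by 1.61 in Ercc1-/- replicate 1. Over the 6 members of the miR-15/16 family, 2 were positive and 4 negative, with a median of -0.08 beside 0.03 for all tested miRNAs. The median of these 6 was 0.53 on slide 1 and -1.08 on slide 2, and without the Ercc1-/- 20% array of replicate 2 the count was 4 positive and 2 negative.

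**Figure D3:**
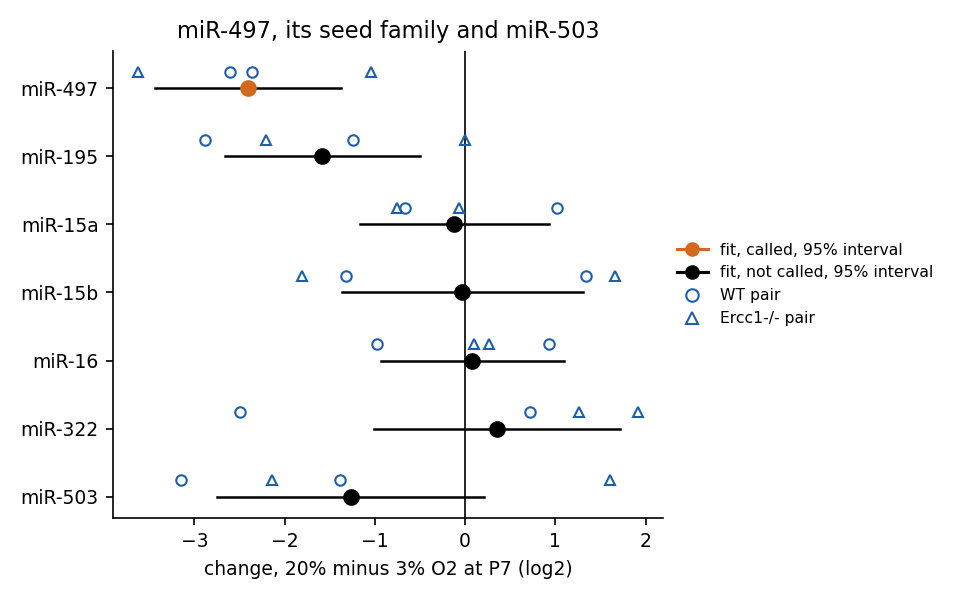
Change between oxygen levels at P7 (20% minus 3% O2, log2) of the 6 miRNAs with the seed of miR-497 and of miR-503. Filled points with bars are the fitted change with its 95% interval (orange, called), and open symbols are the 4 pairs of arrays (circles WT, triangles Ercc1-/-). The intervals of miR-497 and miR-195 lie below 0 and those of the other 5 span it, miR-497 alone being called after adjustment.

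**Figure D4:**
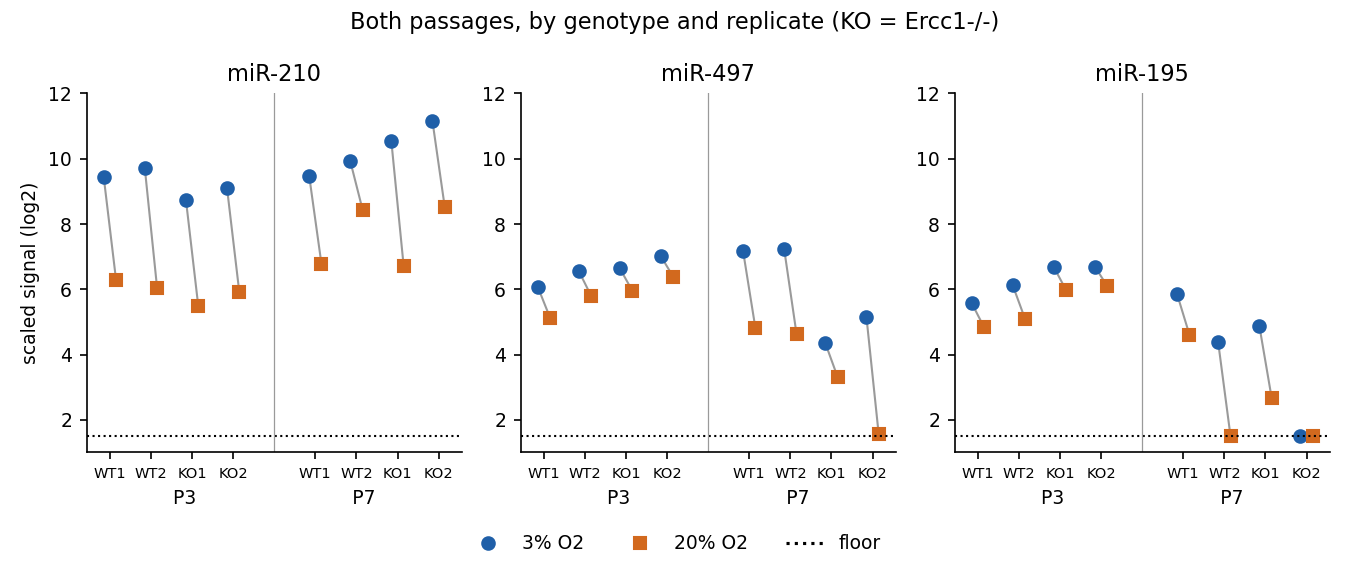
Log2 scaled signal of miR-210, miR-497 and miR-195 on all 16 arrays, P3 at left and P7 at right in each panel, with 3% O2 (circles) and 20% O2 (squares) of the same genotype and replicate joined. The drop in 20% O2 is seen in all 4 pairs at P3 for all 3 miRNAs. At P7 the Ercc1-/- replicate 2 pair of miR-195 lies at the floor of 1.50.

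Beside miR-210, 15 of the miRNAs listed as hypoxia-responsive were tested. Of these 16 in all, 1 was called, 14 had a negative and 2 a positive change, and the median was -0.50 against 0.03 for all tested miRNAs. Most of that shift lay on slide 2, where 14 of 16 were negative (median -1.06), whereas on slide 1 7 were negative (median 0.18). Without the Ercc1-/- 20% array of replicate 2 the count was 11 negative and 5 positive with a median of -0.09, and at P3 10 of 16 were positive. MiR-26a, which targets cell cycle genes, was the largest of them after miR-210 and miR-195. It read 10.66, 9.72, 10.74 and 9.40 in 3% O2 and 10.32, 9.29, 10.26 and 7.53 in 20% O2, a change of -0.78 (adjusted p = 0.758 by limma). All 4 pairs were lower in 20% O2, and the pair holding the weak array moved most, by -1.87. The widely expressed miR-23a, miR-24 and miR-27a, members of one cluster, had changes of 0.12, -0.38 and -0.58, none called.

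MiR-140*, the 3p arm of the cartilage miRNA miR-140 (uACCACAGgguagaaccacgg, chr8:107551288-107551308, plus strand), had the second largest change among the 3 miRNAs whose groups did not overlap. It read 10.06 and 10.02 (WT) and 11.06 and 10.70 (Ercc1-/-) in 3% O2, against 9.16 and 9.73 (WT) and 9.44 and 9.65 (Ercc1-/-) in 20% O2. Its fitted difference was -0.97, with an SE of 0.42 and a 95% interval of -1.87 to -0.06 (limma adjusted p = 0.758), and it stayed between -1.18 and -0.76 whichever array was left out. The 5p arm, miR-140, also had a fitted change of -0.97, not called, but its pairs differed: -0.07, -0.99, 0.81 and -3.63. The third miRNA without overlap, miR-193*, chosen for mention after its values were seen, lay close to the floor, at 2.39 to 3.07 in 3% and 1.50 to 2.33 in 20% O2 (change -0.74, not called).

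MiR-31, which is abundant in fibroblasts and was listed as a mesenchymal marker, was lower in 20% O2 by 0.77, 0.60, 1.03 and 1.32 in the 4 pairs. Its values were 8.18, 8.33, 9.44 and 9.39 in 3% O2 and 7.41, 7.74, 8.41 and 8.07 in 20% O2, a change that limma did not call (-0.93, SE 0.41, adjusted p = 0.758). The groups overlapped because Ercc1-/- MEFs held more of it than WT MEFs at either oxygen level. MiR-652 (-1.01), miR-19b of the growth-promoting miR-17-92 cluster (-0.91), miR-455* (-1.10) and miR-532-5p (-0.94) completed the named miRNAs lower in 20% O2, none called. The first 3 of these were lower in 4 of 4 pairs and miR-532-5p in 3 of 4. Lower in all 4 pairs were 17 of 177 miRNAs (9.6%), and higher in all 4 pairs were 7 (3.95%).

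MiR-223, a miRNA of myeloid blood cells, was above background on 0 of 4 arrays in 20% O2 and on 3 of 4 in 3% O2. It was thus tested only through its 3% arrays. With the dim side raised as described next it was 2.97-fold lower in 20% O2, and its fitted change was not called by limma (adjusted p = 0.758). For this fold the dim side of an array was its own value or its dimmest signal above background, whichever was greater. The bright side kept all 4 values, also that not above background, so the fold is not a strict lower limit. The values were 5.45, 3.63, 2.58 and 4.96 in 3% O2 and 1.50, 2.88, 1.50 and 4.17 in 20% O2. Those in 20% O2 are not measured levels, and 1.50 is the floor. Its highest value was on the 3% array of WT replicate 1, the only P7 array with the blood cell miRNAs miR-142-3p (5.30) and miR-142-5p (3.18) above background. The summed scaled signal of the 7 blood markers ranged from 22.9 to 103 in 3% O2 and from 19.8 to 38.5 in 20% O2, and 4 of the 7 were above background on no P7 array. The fitted change of -1.65 became -0.72 without the 3% array of WT replicate 1. It was called by limma with quantile scaling (-2.53, adjusted p = 0.0454) and with array weights (-2.12, adjusted p = 0.0026). Without the Ercc1-/- 20% array of replicate 2 the change was -2.20. All of these set the 3% arrays, through which miR-223 was tested, against 20% values that are not measured levels. The part of blood cells in the change was not tested.

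Nothing was called higher in 20% O2. MiR-199a-3p (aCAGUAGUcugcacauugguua, from chr1:162217883-162217904, plus strand, and chr9:21496498-21496519, minus strand), a mesenchymal miRNA transcribed with miR-214, had the largest positive change, 1.38 (SE 0.48, 95% interval 0.34 to 2.43, adjusted p = 0.604 by limma). In 3% O2 it read 9.62, 8.65, 8.68 and 6.30 and in 20% O2 12.23, 8.67, 10.49 and 7.40. All 4 pairs were higher in 20% O2, yet WT replicate 2 differed by only 0.01 and the groups overlapped. Its 5p partner on the same precursor, miR-199a-5p, had a change of -0.10, with 0.82 in WT and -1.02 in Ercc1-/- MEFs. Of the 24 tested mesenchymal markers 6 were positive and 18 negative, with a median of -0.28, which was 0.18 on slide 1 and -0.59 on slide 2, and 12 were positive and 12 negative without the Ercc1-/- 20% array of replicate 2.

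MiR-34b-5p and miR-34c, which p53 induces from one transcript and which restrain proliferation, were higher in 20% O2 in most pairs. MiR-34c read 5.97, 5.05, 6.30 and 3.77 in 3% O2 and 7.78, 5.16, 7.73 and 4.08 in 20% O2, which is 0.91 higher (SE 0.48, limma adjusted p = 0.758) and higher in 4 of 4 pairs. MiR-34b-5p read 6.95, 6.37, 6.52 and 5.65 in 3% O2 and 8.52, 6.79, 8.57 and 4.50 in 20% O2, a difference of 0.72 (SE 0.56, limma adjusted p = 0.762), higher in 3 of 4 pairs and lower by 1.15 in Ercc1-/- replicate 2. For both the groups overlapped, and the gain was large on slide 1 (1.62 and 1.81) and 0.21 and -0.37 on slide 2. At P3 both were higher in 20% O2 in 4 of 4 pairs, by 1.18 for miR-34c and 1.23 for miR-34b-5p. The related miR-34a, from another locus, had a change of -0.18 at P7. Over the 8 tested miRNAs listed as p53-responsive, 3 were positive and 5 negative at P7 (median -0.12, 0 called) and 8 of 8 were positive at P3. Without the Ercc1-/- 20% array of replicate 2 the P7 count was 7 positive and 1 negative.

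The let-7 family, which restrains proliferation through Lin28, Hmga2 and Ras, was positive in 8 of 8 tested members, with a median change of 0.52 and 0 called. On slide 1 all 8 were positive, with a median of 1.15, and on slide 2 only 2 were, with a median of -0.11. By pair of arrays the medians were 1.48 (WT replicate 1), -0.72 (WT replicate 2), 0.71 and 0.50 (Ercc1-/- replicates 1 and 2). The largest changes, of let-7f (0.92, SE 0.50) and let-7e (0.90, SE 0.46), had an adjusted p of 0.758, whereas let-7b had a change of 0.01. Let-7f read 8.18, 7.57, 7.42 and 5.05 in 3% O2 and 10.29, 6.87, 8.75 and 5.99 in 20% O2. Their sequences, with let-7b beside the 2 with the largest change, show the shared seed in capitals. Let-7e lies at chr17:17830366-17830387 (plus strand), let-7b at chr15:85707325-85707346 (plus strand), and let-7f is made from a gene on chromosome 13 and one on the X.
let-7e: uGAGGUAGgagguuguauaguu
let-7f: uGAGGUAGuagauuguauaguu
let-7b: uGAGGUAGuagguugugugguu

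The split between slides was general. Of the 177 tested miRNAs, 16 were higher in 20% O2 on both slides, 36 were lower on both, 124 went opposite ways and 1 had no change on one of them. Across miRNAs the changes on the 2 slides had a Pearson r of -0.196, given as a description over miRNAs that share arrays and scaling. Most one-sided were 21 miRNAs from high-numbered discovery sets, whose standing as true miRNAs is in part doubtful: on slide 1 20 were lower and 1 had no change, and on slide 2 21 of 21 were higher in 20% O2 (medians -0.49 and 1.27). The 7 tested miRNAs of the miR-17-92 cluster and its paralogs, which promote proliferation, ran the other way, with 5 higher on slide 1 (median 0.29) and 7 of 7 lower on slide 2 (median -0.93), and 0 were called. MiR-210, miR-497 and miR-195 were among the 36, and miR-210 and miR-497 were within the 4 lowest changes on either slide. The slide 2 change of miR-195 (-1.44) ranked 17 of 177 from the lowest, with both 20% arrays at the floor. Slide and scan coincide with the replicate number and cannot be told apart. The labels do not say whether a replicate number also marks 1 cell line within a genotype, so the pairs are arrays of the same genotype, number and slide.

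**Figure D5:**
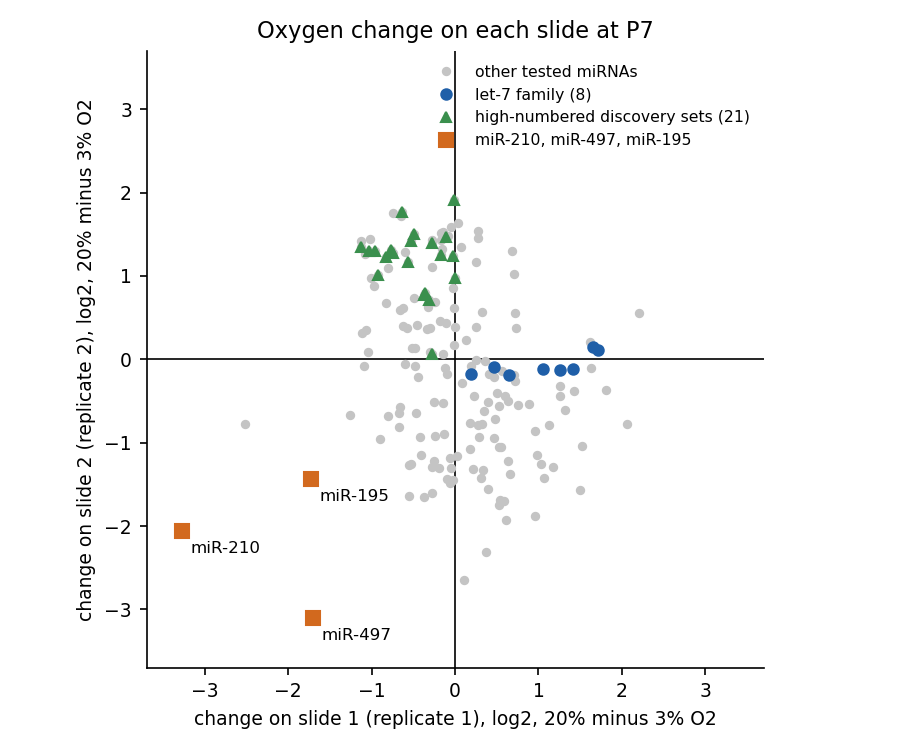
Change between oxygen levels at P7 (20% minus 3% O2, log2) on slide 2 plotted against that on slide 1, 1 point per tested miRNA (177). The 21 high-numbered miRNAs lie at or left of 0 on slide 1 and above 0 on slide 2, and the 8 let-7 members lie right of 0. MiR-210 and miR-497 lie far below 0 on both slides. MiR-195 lies below 0 on both, but on slide 2 it was at the floor on both 20% arrays.

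The imprinted Dlk1-Dio3 cluster on chromosome 12, the largest miRNA cluster on the array, had 21 positive and 8 negative changes among 29 tested members, with a median of 0.16 and 0 called. On slide 1 18 were positive and 11 negative (median 0.32), and on slide 2 14 were positive and 15 negative (median -0.02). MiR-409-3p had its largest change. It read 4.56, 5.28, 4.62 and 6.05 in 3% O2 and 4.86, 6.00, 5.73 and 7.39 in 20% O2, which is 0.86 (SE 0.42, adjusted p = 0.758 by limma), higher in 4 of 4 pairs. MiR-341 was at 0.71 and miR-299 at -0.67. At P3 the cluster had run the other way, with 26 of 29 negative and a median of -0.22, and 0 miRNAs passed the test of the difference between passages, in which miR-376b of this cluster (1.07) and miR-495 (1.31) were among the 5 smallest p (adjusted p = 0.717).

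Of the 10 miRNAs with the smallest p on the higher side, 6, miR-409-3p among them, had their highest value on the weak Ercc1-/- array of replicate 2 in 20% O2. MiR-155, induced by inflammatory signals, was above background on 2 of 4 arrays in 20% O2 and 0 of 4 in 3% O2, so that it was tested only through its 20% arrays. By the rule used for miR-223 it was 1.84-fold higher in 20% O2. That is not a strict lower limit, as only 2 of those 4 values were above background. It was not called by limma (fitted change 0.99, adjusted p = 0.758). It read 2.03, 2.23, 2.33 and 5.99 in 20% O2, the last being the Ercc1-/- array of replicate 2, and 1.50, 2.16, 1.50 and 3.47 in 3% O2. Without that array the change was 0.31. MiR-139-3p (0.86), miR-874 (0.91), miR-878-3p (0.84) and miR-290-5p (0.71) were the others, and without that array their changes were between 0.29 and 0.52. In WT replicate 2 miR-874 was also higher in 20% O2 by 1.38 and miR-290-5p by 1.33.

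The literature list on senescence and MEF immortalization had 8 tested entries, among them miR-21, miR-22 and miR-34a. It also took in miR-21* and miR-28*, other strands of listed names. Of the 8, 3 had a positive and 5 a negative change, with a median of -0.02 and 0 called. MiR-21, an abundant miRNA of stressed fibroblasts, had a change of 0.47, with 1.26 on slide 1 and -0.32 on slide 2. Some miRNAs had been singled out between oxygen levels at P7 in the Ercc1-/- MEFs of these same samples. Of these, miR-33, miR-323-3p and miR-450b-3p were above background on 0 of 8 P7 arrays. Every Ercc1-/- value was at the floor, as was every WT value except 1.62 for miR-33 in replicate 1 at 3% O2, so that no fold can be given in Ercc1-/- MEFs or over both genotypes.

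Within WT MEFs 0 miRNAs were called and 6 had an unadjusted limma p under 0.05, all lower in 20% O2. Those with the smallest p were miR-497, miR-210, miR-195, miR-223 (-2.35) and miR-503 (-2.27). Within Ercc1-/- MEFs 0 were called and 3 had an unadjusted p under 0.05, all lower, and the 5 with the smallest p were miR-210, miR-497, miR-130b (-1.88), miR-341 (1.45) and miR-155 (1.67). For the difference of the oxygen change between genotypes 0 were called and 2 had an unadjusted p under 0.05: miR-351, with -0.82 in WT and 1.45 in Ercc1-/- MEFs, and miR-322, with -0.88 and 1.59, neighbours in the X-linked cluster that also holds miR-503. Next came miR-199a-5p, miR-130b and miR-494, all 5 with an adjusted p of 0.997. Sizes in Ercc1-/- MEFs depended on which 20% array was kept, more for some miRNAs than for others. Without the 20% array of replicate 1, which leaves the weak array alone, the change was -2.78 for miR-210, -3.33 for miR-497 and 3.03 for miR-155. Without the weak array it was -3.69, -1.33 and 0.32.

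The test and threshold of the study's methods (an unpaired test with unequal variances, 2-fold and an unadjusted p under 0.05) were also run, on the values scaled here. Only the 177 tested miRNAs entered, so that miR-33, miR-323-3p and miR-450b-3p could not pass. In each comparison 1 miRNA passed: miR-210 over both genotypes, miR-497 in WT and miR-140* in Ercc1-/- MEFs, all lower in 20% O2. After Benjamini-Hochberg adjustment 0 passed in any of the 3.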

How the data were processed

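Total RNA of 16 MEF cultures was hybridised to 1-colour Agilent mouse miRNA arrays (V2). The authors scanned them and made the deposited intensity values with Agilent Feature Extraction (10.7.1.1 in the file headers), which subtracts background from each of 13715 spots and does not scale between arrays. The deposited flags, of no unit, mark outlier spots and spots well above background, and the deposited series table holds summed intensity values per miRNA. No fold changes or p-values of the authors were used.

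From these, processed signals were averaged per probe and then per miRNA without control and outlier spots. A miRNA was above background where a probe had a share of at least 0.5 of its spots well above it. Scaling set the mean log2 equal on all arrays over the 57 miRNAs above background on all 16, floored at 2.82 (each array's dimmest scaled signal above background, 1.02 to 18.0, median over arrays) and put on the log2 scale. The 434 miRNAs above background on both arrays of no P7 group were left out. Each change was fitted with limma 3.58.1 in R 4.3.3 on the 8 P7 arrays with oxygen, genotype and replicate (4 residual and 8.47 prior degrees of freedom). Changes within a genotype and their difference used 1 mean per group plus the replicate, and the difference between passages used all 16 arrays. The replicate number is also the slide: differences between replicates correlated across miRNAs between all 6 pairs of P7 groups (Pearson r 0.783 to 0.901). Array number limits the precision.

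The comparison, the lists and the miRNAs named were chosen with earlier results of these data known. The rule named called miRNAs, filled to 10 per direction by the smallest p, the 5 smallest p of each other comparison, miR-210, 3 miRNAs the study names, up to 4 per list, and every called miRNA where 5 or fewer were called. Alternatives covered scaling, signal, normexp background (offset 50, on median spot signals), detection, floor, filter, block, weights, slides and each array left out. Lists not described elsewhere, the miR-200 family (0 tested), Hox clusters (0), Hif1a-targeting miRNAs (3 tested, median change -0.10), miR-29 family (3, 0.07), miR-322 cluster (4, -0.10), Sfmbt2 cluster (2, 0.26), H19/Igf2 locus (2, -0.20), Clcn5 cluster (3, -0.19), miR-290 cluster (1, 0.71) and neural markers (2, -0.30), had 0 called.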

Additional observations from a re-analysis of the deposited data

Results flagged for a closer look

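Among the groups of 4 arrays examined (70 measures, of which chance marks about 1 in 20 by a gap test), 5 had 1 array far from the other 3. Of the 20% O2 arrays, the Ercc1-/- array of replicate 2 was the distant one 3 times. Its miR-155 signal was 5.99 against 2.03 to 2.33, its miR-299 signal was 1.50, at the floor, against 3.03 to 3.29, and its median correlation with the other P7 arrays was 0.524 against 0.816 to 0.854. In 3% O2, let-7d was 5.20 on the Ercc1-/- array of replicate 2 against 7.25 to 7.60 on the others, and the Ercc1-/- array of replicate 1 had 666 outlier spots against 261 to 318.

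Outside the mouse miRNAs, 3 of 39 viral miRNAs were above background on all 8 P7 arrays (7 on at least 1), although no infection is part of the design. The brightest, mcmv-miR-M23-1-5p, read 6.96 ± 1.11 (SD, n = 4) in 20% and 6.70 ± 0.47 (SD, n = 4) in 3% O2, mcmv-miR-m88-1 read 5.86 and 5.72, and mghv-miR-M1-2 read 4.52 and 4.59. Their differences between oxygen levels, 0.26, 0.14 and -0.07, were below the median SE of the tested mouse miRNAs.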

How the results depend on the processing

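MiR-210 kept its direction under every setting tried and was called in 6 of 8 fits without 1 array in 15 of 20 other settings that used both slides, and on slide 1 but not slide 2 alone. The count of 2 called miRNAs became 1 when arrays were not scaled, when the mean came from all miRNAs or from those above background at P7, with normexp, with the detection call of the software, with a filter on all arrays and on slide 1 alone. It became 0 with the total signal of the software, with a floor multiplied by 0.1 or 4, without the filter and with no replicate block, 3 with quantile scaling (miR-223 added) and 4 with array weights. Leaving out 1 array gave 0 to 4, with 0 without the 3% array of WT replicate 1 or Ercc1-/- replicate 1, and 4 (miR-195 and miR-223 added) without the weak Ercc1-/- array in 20% O2. The methods' t-test passed 1 in the pooled comparison, in WT and in Ercc1-/- MEFs, and 0 after Benjamini-Hochberg. In WT MEFs the count of 0 became 5 with array weights and 0 to 3 without 1 array, 3 being reached without either Ercc1-/- array in 20% O2. In Ercc1-/- MEFs it became 1 with either 75th percentile scaling, normexp, the filter on all arrays, the replicate block within genotype, the robust trend and the fit of 16 arrays, and ranged from 0 to 67 without 1 array. The same omission, of the Ercc1-/- 20% array of replicate 1, gave 8 between genotypes (range 0 to 8) and 30 between passages (range 0 to 30), with the lone array left in a group assumed to vary like the others. The cause of these shifts was not tested.

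Apart from the fits without 1 array, the settings, with each slide alone among them, gave 663 values of 31 named miRNAs in the pooled comparison. Of these, 620 kept direction and side of the threshold, 3 were newly called, 17 lost their call and 23 changed sign, all of the last uncalled. Values given below within a genotype or for a difference lie outside that count. With total signal the change was -0.42 for miR-139-3p, 0.15 for miR-15b, -0.71 for miR-16, -0.082 for miR-322, 1.79 for miR-497 in WT MEFs, 0.10 for the passage difference of miR-455* and -1.40 for that of miR-495. With normexp it was 0.30 for miR-15a, 0.55 for miR-15b, -0.067 for miR-155 in Ercc1-/- MEFs, -0.12 for the genotype difference of miR-351 and -0.022 for the passage difference of miR-132. Other scalings gave -0.043 (quantile), -0.0614 (none), -0.10 (all miRNAs), -0.033 and -0.00931 (75th percentile) for miR-16 and 0.31 (none) and 0.00135 (P7) for miR-15b. Array weights gave 0.13 for miR-15a and 0.26 for miR-15b, the floor multiplied by 4 gave 0.25 for miR-15b, slide 1 alone gave 0.48 for miR-15a and 1.50 for miR-15b, and slide 2 alone gave -0.13 for let-7d, -0.11 for let-7g, -0.44 for miR-16, -0.61 for miR-322 and -0.37 for miR-34b-5p. Without 1 array miR-15a ranged from -0.58 to 0.21, miR-15b from -0.61 to 0.57, miR-16 from -0.28 to 0.49 and miR-322 from -0.11 to 1.14.

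The median over all 177 miRNAs was between -0.15 and 0.14 under the settings that kept all arrays. With 2 arrays a group and a median SE of 0.479, changes under about 1 log2 unit were not resolved, and after adjustment some larger ones were not either, such as that of miR-223 (-1.65). On the weak array 25 of 177 tested values sat at the floor, against 2 to 12 on the other P7 arrays, so its dim miRNAs have only an upper limit there.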
